A study of Mus musculus with 19 samples.

Results

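The nuclear-encoded genes of oxidative phosphorylation were read in 19 RNA-seq libraries of mouse bone marrow cells. A gene was a member if its symbol begins with Nduf, Uqcr, Cox4 to Cox8 or Atp5, or is Sdha, Sdhb, Sdhc, Sdhd or Cyc1. The rule found 87 genes of the 16842 listed in any library, and all 87 were listed in every set of libraries. By role they are 37 subunits of complex I, 4 complex I assembly factors (Ndufaf1 to Ndufaf4), 4 subunits of complex II, 9 of complex III, 15 of complex IV and 15 of complex V. The other 3, Cox4nb, Atp5s and Atp5sl (reference symbols Emc8, Dmac2l and Dmac2), were counted neither as subunits nor among the Ndufaf assembly factors. Cox8b, Cox8c and Ndufa4l2, for which values were sought, had no row.

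Cells carrying CD11b, the myeloid integrin chain encoded by Itgam (Cd11b cells below), were taken at 4 months of age (young; 4 wild-type and 3 mutant libraries) and at 18 months (old; 3 of each genotype). LK cells, the bone marrow fraction without lineage markers and with the receptor Kit, were also taken at 18 months, with 3 libraries of each genotype. Wild type is written WT and mutant MT, as in the labels; the series concerns a mutant of the chromatin regulator Asxl1. The allele, its driver, the strain, the sex and any pooling of animals are not given in the sources used here. The labels do not say whether replicates are separate animals, so p-values measure only the spread between these libraries.

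Oxidative phosphorylation makes ATP in the inner mitochondrial membrane. Complexes I and II pass electrons from NADH and succinate to ubiquinone, complex III passes them to cytochrome c, complex IV passes them to oxygen, and complex V, the ATP synthase, uses the resulting proton gradient. All of complex II and most subunits of the other complexes are encoded in the nucleus, while a few catalytic subunits are encoded by mitochondrial DNA. In blood formation, resting stem cells and mature neutrophils are known for a large reliance on glycolysis, and dividing progenitors for active respiration.

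Gene counts summed to 26251822 to 68260809 per library. Levels below are CPM, counts per 1000000 gene counts scaled with factors common to all 19 libraries. Sorting markers went with the labels: Itgam lay at 3263 to 3465 CPM in old WT Cd11b cells and at 45.28 to 56.68 in WT LK cells, and Kit at 62.16 to 69.49 and 197.9 to 220.0. Some libraries stood apart. Later neutrophil markers (Cxcr2, Mmp8, Mmp9, Retnlg, Ltf, Camp and Ngp) include secondary granule genes and are not limited to mature cells. Their sum reached 1133 and 1141 CPM in LK MT replicates 2 and 3 and 209.2 in LK MT replicate 1. It was 263.6 in the highest and 76.02 and 79.09 in the other WT LK libraries. The granule genes Ngp, Camp and Ltf had LK MT medians of 497.7, 432.6 and 111.7 CPM. None of these 7 markers was at 0 in any LK library. Over genes, the deviations of LK libraries from their group means went together across genotypes, for WT replicate 1 with MT replicates 2 and 3 (Pearson correlation 0.37 and 0.372) and for MT replicate 1 with WT replicates 2 and 3 (0.325 and 0.348). In the 18-month groups replicates 2 and 3 were closer to each other than to replicate 1 (chi-square per degree of freedom 2.92 to 6.39 in 4 pairs, against 13.7 to 44.5 in 8 pairs), yet they differed by more than counting noise and were kept apart.

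Promoters are shown first because several members carry motifs of the factors NRF1 and YY1, which are known regulators of respiratory chain genes. RefSeq promoters (GRCm38.p6, 250 bases before to 50 after each start) were matched for 72 of the 87 members and gave 78 promoters. Members without an entry included Atp5a1, Cox4i1, Cox4i2, Cox4nb, Cox6a2, Cox6c, Cyc1, Ndufa2, Ndufb9, Ndufs1, Sdhc, Uqcrb, Uqcrc2 and Uqcrq. Motifs were searched on both strands by exact letters. The following stretches end at the start site's last upstream base and hold the NRF1 motif, in capitals (the core GCATGCGC with GC before it); they were chosen after the matches were seen.
Atp5g2, chr15:102671048-102671197, minus strand: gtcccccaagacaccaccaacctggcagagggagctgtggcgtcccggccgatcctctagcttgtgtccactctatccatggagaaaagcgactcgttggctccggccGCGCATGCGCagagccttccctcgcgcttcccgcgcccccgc
Atp5k, chr5:108434400-108434549, minus strand: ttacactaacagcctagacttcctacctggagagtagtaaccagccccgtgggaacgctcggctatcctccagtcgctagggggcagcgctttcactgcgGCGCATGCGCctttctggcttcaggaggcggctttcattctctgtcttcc
Ndufa11, chr17:56717612-56717761, plus strand: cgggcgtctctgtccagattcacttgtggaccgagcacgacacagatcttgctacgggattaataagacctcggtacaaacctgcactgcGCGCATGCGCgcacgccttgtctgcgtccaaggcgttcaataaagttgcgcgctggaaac
Ndufaf4, chr4:24897933-24898082, plus strand: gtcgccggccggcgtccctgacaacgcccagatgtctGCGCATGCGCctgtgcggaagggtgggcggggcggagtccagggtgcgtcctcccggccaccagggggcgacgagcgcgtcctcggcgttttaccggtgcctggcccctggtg

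Sequences are written 5′ to 3′ in the direction of the gene. The motif begins 42 bases before the start of Atp5g2, one of the genes of the c subunit ring of ATP synthase, and 50 bases before that of Atp5k, which encodes its e subunit. It begins 60 bases before the start of Ndufa11, a membrane-bound accessory subunit of complex I, and 113 bases before that of the assembly factor Ndufaf4. Of these genes Ndufaf4 and Atp5g2 recur below among the largest differences between LK and Cd11b cells. Ndufa11 differed less, with 25.48, 30.14 and 30.91 CPM in old WT Cd11b and 45.98, 39.23 and 38.71 in LK WT libraries. Atp5k was at 33.68, 55.48 and 52.22 against 101.9, 87.03 and 82.28 CPM. Promoters of Cox6a1 and Uqcrc1 held the motif too. Whether the motif goes with these differences was not tested. The YY1 motif, in capitals (the core AAGATGGC with GGC after it), lay after the start in the following windows of 30 bases, of complex I subunits.
Ndufa9, chr6:126849101-126849130, minus strand: gaggcattgtgggagAAGATGGCGGCcgcc
Ndufs4, chr13:114388045-114388074, minus strand: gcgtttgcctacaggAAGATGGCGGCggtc
Ndufs6, chr13:73328435-73328464, minus strand: tcaagggtcaccggcAAGATGGCGGCggtg
Ndufs7, chr10:80249458-80249487, plus strand: ctgaaggccgaggccAAGATGGCGGCgctg

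In these windows the distance from the start to the motif was 29 bases in Ndufa9, 35 in Ndufs4, 33 in Ndufs6 and 24 in Ndufs7. The NRF1 motif was in 6 of 78 member promoters (7.69%), against 1.95% of the promoters of other genes listed in all sets and 0.971% of all promoters in the table. Its core, which lies within it, was in 14.1%, 4.87% and 2.71%. The YY1 motif was in 6 member promoters (7.69%), 1.29% of the other genes' and 0.633% of all promoters. Its core, which lies within it, was in 15.4%, 3.99% and 2.75%. These counts are of promoters, not genes. Overlapping promoters of Atp5sl (chr7:25619164-25619463 and chr7:25619243-25619542) hold the same YY1 match and count separately, for the motif and for its core. Atp5sl was not counted as a subunit. The ETS motif CCGGAAG was in 21.8%, 16.2% and 8.86%. The SP1 motif GGGCGG went the other way, with 42.3% of member promoters against 60.2% of those of other listed genes and 35.7% of all. Median GC content was 58.5% in member promoters and 60.3% in those of other listed genes. A match describes letters and does not show binding.

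Summed over the members of a complex, levels were lowest in young Cd11b, intermediate in old Cd11b and highest in LK cells. Complex I summed to 1099 ± 38.0 CPM in young WT (SD, n = 4), 1822 ± 186 in old WT (n = 3) and 2943 ± 199 in LK WT libraries (n = 3). Complex V lay at 1555 ± 69.3, 2224 ± 194 and 4718 ± 254 CPM. In the 3 sets in that order, complex II summed to 306.6 ± 9.78, 418.9 ± 17.4 and 764.3 ± 32.9, complex III to 478.5 ± 21.5, 666.6 ± 55.6 and 1374 ± 76.3, and complex IV to 762.1 ± 39.0, 1164 ± 108 and 1832 ± 161 CPM. No library of one WT set overlapped another set in any of these 5 sums. Young libraries also differed in content. RNAs without poly(A) tails (Rn7sk, Rmrp and Rpph1) had medians of 19250 CPM in young WT, 3.271 in old WT and 1.845 in LK WT libraries. Age and library content therefore cannot be told apart in the step from young to old. In bulk samples fewer cells of a type and less RNA per cell cannot be told apart.

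**Figure D1:**
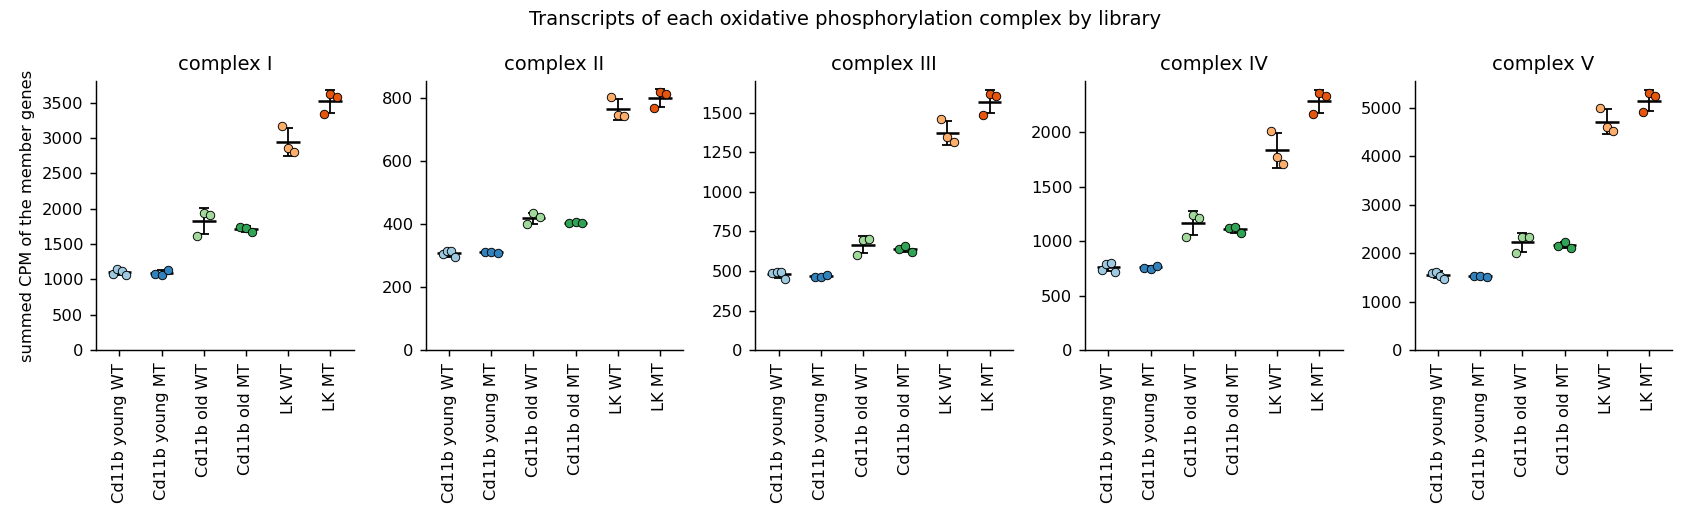
Summed CPM of the members of complexes I to V (panels, y axis) in each library of the 6 groups (x axis), with bars for the mean ± SD. Sums are lowest in young Cd11b and highest in LK cells in every panel, and the LK MT libraries lie above the LK WT libraries in complexes I, III and IV. Young libraries differ from the others in library content as well as age.

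Within complexes, levels per kilobase of transcript differed widely between subunits. Averaged over the 6 groups, Atp5b, the catalytic beta subunit of ATP synthase, was at 433.1 CPM per kilobase and Atp5a1, its alpha partner, at 255.4, while Atp5j2, the f subunit, was lowest in complex V at 90.07. In complex IV, Cox4i1 led at 333.4 and Cox8a followed at 250.4, and Cox4i2, the alternative isoform of subunit 4, was lowest at 0.5004. In complex III the range was narrower, from Uqcrh, the acidic hinge protein, at 176.3 and Uqcrq at 168.0 down to the Rieske iron-sulfur protein Uqcrfs1 at 63.15. In complex I, Ndufa4 (now regarded as a complex IV subunit) was at 169.8 and Ndufb7 at 122.6, and Ndufb4 was lowest at 12.69. In complex II the anchor Sdhd was at 98.09, the flavoprotein Sdha at 78.14, the iron-sulfur subunit Sdhb at 65.37 and the anchor Sdhc at 24.81. The complex I assembly factors lay at 5.228 to 11.01 CPM per kilobase.

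Replicates lay close together for most members. The ratio of the highest to the lowest library had a median over members of 1.07 to 1.21 in the 6 groups. Wider spreads were seen for Atp5g2 in old WT libraries (10.34, 30.26 and 28.07 CPM) and in old MT libraries (34.68, 32.92 and 0.7116 CPM), and for Ndufb4 in LK WT libraries (24.47, 20.03 and 10.77 CPM). Atp5l, the g subunit of ATP synthase, lay at 105.1, 60.03 and 56.56 CPM in LK WT and at 63.65, 122.6 and 113.1 CPM in LK MT libraries. For Atp5l, WT replicate 1 and MT replicates 2 and 3 were therefore high and the other 3 LK libraries low, across genotypes. The genome annotation holds pseudogene copies of members such as Atp5l and Ndufb4, with which reads can be shared. Other members, Atp5g2 and Ndufab1 among them, may share reads in this way too.

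LK cells were compared with Cd11b cells among WT animals of 18 months to see how the pathway differs between these sorted sets. Proliferation markers were present in both. Mki67 had medians of 1098 CPM in old WT Cd11b and 1133 in LK WT libraries. The other markers of this list had higher medians in LK WT: Pcna 446.1 against 167.4, Mcm5 530.5 against 163.4, Ccnb1 158.5 against 83.57 and Top2a 746.2 against 597.8 CPM. Of 86 members tested, 69 were higher and 5 lower in LK cells by edgeR's quasi-likelihood test at a Benjamini-Hochberg adjusted p under 0.05. Of all 13710 genes tested, 45.1% were higher and 41.7% lower. The median log2 difference was 0.79 over members and 0.08 over all genes. Every LK library was above every Cd11b library for 73 members (48.5% of all genes) and below for 4 (40.2% of all genes). By complex, 26 of 37 complex I members were higher and 4 lower, 4 of 4 were higher in complex II, 9 of 9 in complex III, 13 of 14 in complex IV and 11 of 15 in complex V. Sums over members were 1.57-fold (complex IV) to 2.12-fold (complex V) higher in LK cells, with 1.62-fold for complex I, 1.82-fold for complex II and 2.06-fold for complex III.

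Assembly factors of complex I stood farthest apart. Ndufaf4, which acts with Ndufaf3 early in assembly, was at 3.041, 3.329 and 3.87 CPM in old WT Cd11b cells and at 47.94, 43.79 and 43.67 in LK cells. Its 3 LK libraries thus lay far above the Cd11b libraries, with a log2 difference of 3.62 ± 0.09 (SE; edgeR adjusted p 3.19e-09). Ndufaf2, a chaperone of late assembly related in sequence to the subunit Ndufa12, was at 1.285, 2.151 and 2.326 CPM in Cd11b cells and at 18.73, 16.59 and 14.07 in LK cells (8.01-fold higher, edgeR adjusted p 1.42e-06). Ndufaf3 went the other way, from 16.77, 19.71 and 18.95 CPM in Cd11b cells to 15.84, 16.17 and 14.38 in LK cells, and was lower by the test (-0.35 ± 0.08, edgeR adjusted p 0.00315). These partners in early assembly differed in opposite directions.

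Among complex I subunits, Ndufa12, an accessory subunit of the matrix arm, was at 11.58, 14.11 and 13.59 CPM in Cd11b cells and at 68.28, 60.96 and 58.9 in LK cells, a 4.48-fold difference (edgeR adjusted p 3.50e-08). Ndufab1, the mitochondrial acyl carrier protein, was at 14.41, 15.17 and 17.04 CPM against 70.82, 65.44 and 65.91, 4.05-fold higher (edgeR adjusted p 2.14e-08). Both groups were well separated for these genes. The iron-sulfur core subunit Ndufs1 was at 80.52, 85.95 and 84.82 CPM against 156.1, 155.7 and 155.4 (log2 difference 0.80 ± 0.05, edgeR adjusted p 4.16e-07). All 7 core subunits, the conserved catalytic part of the complex, were higher in LK cells (median 0.80), and 19 of 30 accessory subunits were higher and 4 lower (median 0.67).

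The lower subunits were all accessory ones. Ndufv3, of the NADH-oxidising module, was at 73.75, 93.13 and 90.24 CPM in Cd11b cells and at 54.4, 48.05 and 46.18 in LK cells, so that all LK libraries were lower (log2 difference -0.89 ± 0.09, edgeR adjusted p 2.38e-05). Ndufa13 was at 73.34, 90.42 and 84.84 CPM against 65.65, 57.92 and 55.58 (-0.57 ± 0.08, edgeR adjusted p 0.000228). Ndufb7 was at 90.43, 106.8 and 112.6 CPM against 87.16, 74.75 and 76.81 (-0.47 ± 0.09, edgeR adjusted p 0.000939). For Ndufs4, an accessory subunit whose loss causes a fatal brain disease in mice, the groups overlapped (47.26, 54.68 and 55.75 against 53.45, 46.27 and 46.6 CPM), with a log2 difference of -0.21 ± 0.08 (edgeR adjusted p 0.0348). Members of complex I that did not pass the test included Ndufa6 (0.07) and Ndufa8 (0.12).

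In complex II every subunit was higher in LK cells. Sdha was at 172.8, 184.6 and 182.3 CPM in Cd11b cells and at 362.5, 351.0 and 351.5 in LK cells (log2 difference 0.88 ± 0.05, edgeR adjusted p 2.01e-07). Sdhb, which receives electrons from Sdha, moved least, from 72.23, 80.38 and 74.68 to 106.4, 97.79 and 96.78 CPM (0.31 ± 0.05, edgeR adjusted p 0.000661). The anchors Sdhc (0.85 ± 0.06) and Sdhd (0.80 ± 0.06) lay close to Sdha. In complex III the largest differences were those of Uqcr11, a small subunit at 24.52, 31.14 and 29.87 CPM in Cd11b cells and 102.0, 92.4 and 86.23 in LK cells (1.62 ± 0.09, edgeR adjusted p 4.29e-07), and of Cyc1, cytochrome c1. Cyc1 was at 65.61, 70.68 and 69.07 CPM against 191.4, 188.7 and 183.9 (1.36 ± 0.05, edgeR adjusted p 1.57e-08). The smallest was that of Uqcrh, at 0.64.

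Tissue isoforms led in complex IV. Cox6b2, known as the testis isoform of subunit 6b, was at 5.739, 7.69 and 7.614 CPM in Cd11b cells and at 44.36, 41.2 and 39.81 in LK cells (log2 difference 2.48 ± 0.11, edgeR adjusted p 7.00e-08). Cox6a2, known as the heart and muscle isoform of subunit 6a, was at 0.04283, 0.02946 and 0.09086 CPM in Cd11b cells, which is 1 to 5 counts a library, and at 2.045, 1.43 and 1.71 in LK cells. It passed the test (edgeR adjusted p 2.58e-06), and with so few counts no fold is given. Cox7b was at 50.99, 64.05 and 61.31 CPM against 160.1, 146.6 and 136.9 (1.23 ± 0.09, edgeR adjusted p 1.82e-06). Cox4i1, the common isoform of subunit 4, differed by 0.42. Cox7a2l, a factor of supercomplex formation, was the member of complex IV that did not pass (0.08, edgeR adjusted p 0.348), with 102.9, 92.34 and 97.83 CPM against 125.5, 102.8 and 103.7.

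In complex V the catalytic head and the c ring led. Atp5b was at 512.4, 561.6 and 574.6 CPM in Cd11b cells and at 1505, 1458 and 1437 in LK cells (log2 difference 1.32 ± 0.06, edgeR adjusted p 7.77e-08). Atp5a1 was at 386.6, 412.3 and 422.5 CPM against 1169, 1098 and 1086 (1.36 ± 0.05, edgeR adjusted p 4.07e-08). The groups did not overlap in either gene, and Atp5c1, for the gamma subunit, rose by 0.52 only. The 3 genes of the c subunit, whose mature proteins are identical, differed by 2.45 ± 0.08 (Atp5g1), 2.09 ± 0.39 (Atp5g2) and 1.42 ± 0.08 (Atp5g3), with edgeR adjusted p of 1.02e-08, 0.00282 and 3.34e-07. Atp5g1 was at 23.56, 27.84 and 28.15 CPM in Cd11b cells and at 164.6, 148.2 and 151.3 in LK cells. The stalk subunits differed among themselves. Atp5o, the peripheral stalk subunit OSCP, was at 69.55, 84.3 and 85.75 CPM in Cd11b cells and at 215.1, 196.8 and 191.2 in LK cells (2.35-fold, edgeR adjusted p 1.20e-06), and Atp5d, the delta subunit, was 1.84-fold higher. Atp5f1, the b subunit, was at 238.5, 272.7 and 268.5 CPM against 302.7, 277.0 and 270.2 (0.03, not called), and Atp5h (0.20) and Atp5e (0.32) did not pass either.

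**Figure D2:**
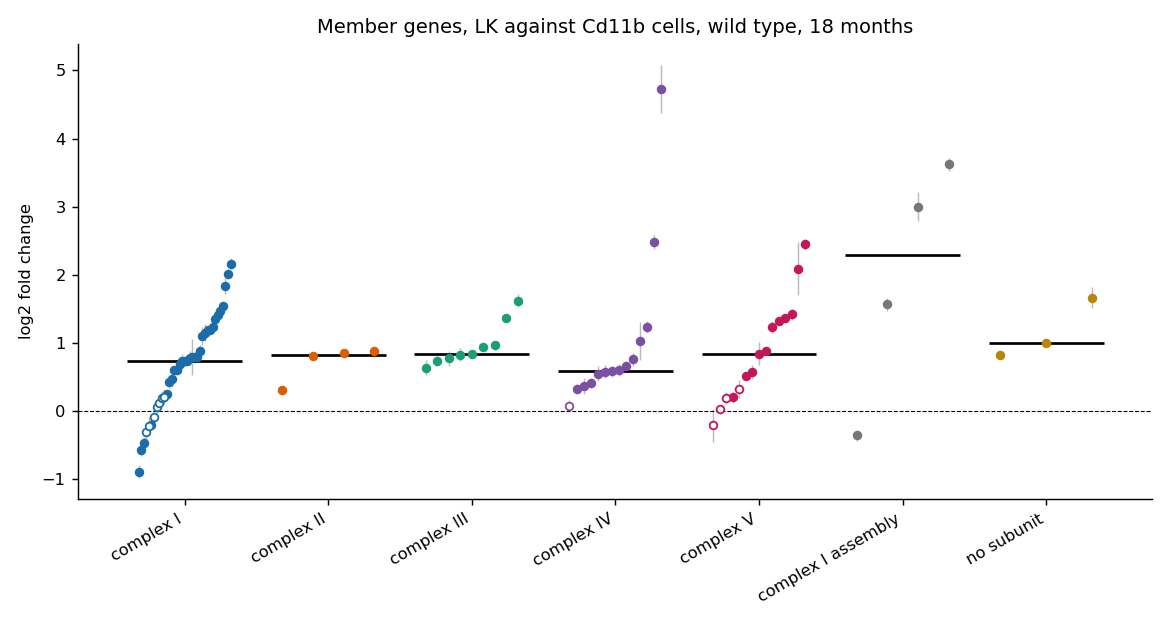
Log2 difference of LK against Cd11b WT cells at 18 months for each member tested (y axis, ± SE), ordered by complex (x axis); filled points passed the test, open points did not, and black bars mark medians. Most members lie above 0, with Ndufaf4, Ndufaf2, Ndufa12, Cox6a2, Cox6b2 and Atp5g1 highest in their groups and Ndufv3 lowest.

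Other lists of mitochondrial and energy genes were read in the same fit. Of 76 mitochondrial ribosomal protein genes 70 were higher and 3 lower in LK cells (median 1.37; Mrps18b 2.84, Mrpl33 -1.08), and of 16 genes of the TCA cycle, which feeds the chain, 14 were higher and 0 lower (median 0.91; Suclg2 3.16, Idh3a 2.70). Assembly and ancillary factors outside the symbol rule were higher for 27 and lower for 4 of 33 (median 1.22; Ecsit 2.68, Lrpprc 2.31). Glycolysis genes were lower for 15 and higher for 5 of 20 (median -1.31; the glucose transporter Slc2a3 -4.83, the lactate exporter Slc16a3 -4.76, Pfkm 5.09 and Pdk1 2.98). Regulators of mitochondrial biogenesis were split, 7 higher and 7 lower of 14, with Tfam at 1.72 and Esrra at -1.40. Cytosolic ribosomal protein genes, another set of short and abundant genes, were higher for 80 and lower for 2 of 83 (median 1.75), a larger median than that of the respiratory chain members.

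Cell composition differed between these sets. All 7 later neutrophil markers were lower in LK cells (summed 80690 to 89750 CPM in Cd11b against 76.02 to 263.6). All 5 neutrophil precursor markers were higher (1616 to 1750 against 12150 to 13820). All 7 erythroid markers were higher (10.96 to 12.43 against 1739 to 1823), as were 4 of 5 proliferation markers. Their part in the result was not tested. With the trends of fold change with transcript length and GC content removed, 66 members were higher and 10 lower (45.7% and 42.2% of all genes), 71 of them called in both fits, with a median of 0.56. Lower ones then included Ndufa1, Ndufa3, Ndufb11, Atp5l and Atp5f1, the last at -0.11.

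MT and WT animals were compared in LK cells to see whether the mutation goes with a change of the pathway in progenitors. Of 87 members, 62 were higher and 1, Ndufs1, was lower in MT (edgeR's quasi-likelihood test, adjusted p under 0.05), while 13.9% of all 14113 genes tested were higher and 15.9% lower (29.8% in all). The differences were small: the median log2 difference was 0.25 over members and 0.02 over all genes, and the largest was 0.44, of Ndufa5. All 3 MT libraries were above all 3 WT libraries for 66 members (22.6% of all genes) and below for 1 (21.6%). The number of calls depended on single libraries. It was 24 without MT replicate 2 (6.94% of all genes called), 32 without MT replicate 3 (8.28%), 23 without WT replicate 2 (6.87%) and 24 without WT replicate 3 (7.49%), with medians of 0.21 to 0.27 over all 6 such fits. With replicates 2 and 3 of each group summed, 0 members and 3 of all genes passed edgeR's test, and 54 members had an unadjusted p under 0.05. With the replicate number as a block in edgeR's fit, 0 members and 3 of all genes passed, and 64 members had an unadjusted p under 0.05. Without MT replicates 2 and 3 together, 0 members passed edgeR's test (0.0412% of all genes), 45 had an unadjusted p under 0.05, and the median was 0.20.

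Counts by role are given for complexes I, III and V. Of complex I, 28 of 30 accessory subunits were higher (median 0.30), and 4 of 7 core subunits were higher and 1 lower (median 0.14). Of complex III, all 5 small subunits were higher (median 0.31) and Uqcrc1 of the 4 larger ones (median 0.06). Of complex V, 0 of the 3 genes for subunits alpha, beta and gamma (Atp5a1, Atp5b and Atp5c1) were higher, with edgeR adjusted p of 0.937, 0.982 and 0.307. Of the other 12 members of complex V, 9 were higher (median 0.22). Of complex IV 12 of 15 were higher (median 0.29) and of complex II 1 of 4 (median 0.09). Of the assembly factors Ndufaf2 (0.33) and Ndufaf3 (0.26) were higher, and Ndufaf1 (0.16) and Ndufaf4 (0.03) did not pass. Ndufaf2 was at 18.73, 16.59 and 14.07 CPM in WT and at 20.36, 22.25 and 20.74 in MT libraries. No test compared these roles with each other, and they differ in transcript length, as described below.

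Ndufa6, an accessory subunit of complex I, was at 62.94, 55.11 and 54.85 CPM in WT and at 73.71, 79.69 and 77.87 in MT libraries, a 1.31-fold difference (edgeR adjusted p 0.00627). Ndufa5 was at 43.52, 37.35 and 37.68 against 50.58, 58.79 and 54.5 CPM (1.36-fold, edgeR adjusted p 0.00675), and Ndufb7 at 87.16, 74.75 and 76.81 against 96.31, 110.4 and 114.4 CPM (1.32-fold, edgeR adjusted p 0.00757). In these 3 genes MT replicate 1 was the lowest MT library and WT replicate 1 the highest WT library, and the groups did not overlap. Ndufs1 was at 156.1, 155.7 and 155.4 CPM in WT and at 139.9, 143.8 and 141.6 in MT libraries. It fell by 0.17 on the log2 scale (SE 0.03, edgeR adjusted p 0.0119), with all MT libraries below all WT libraries.

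In complex II the membrane anchor Sdhc was higher, at 130.7, 121.6 and 119.0 CPM in WT and 136.4, 145.1 and 143.2 in MT libraries (1.12-fold, edgeR adjusted p 0.0161). Sdha was at 362.5, 351.0 and 351.5 against 343.9, 353.9 and 347.5 CPM (log2 difference -0.06 ± 0.03, edgeR adjusted p 0.243), so its groups overlapped. Sdhb (0.09 ± 0.04) and Sdhd (0.09 ± 0.06) did not pass, with edgeR adjusted p of 0.127 and 0.283. The sum over complex II was at 802.2, 747.4 and 743.3 CPM in WT and at 768.5, 818.0 and 813.4 in MT libraries, which overlapped.

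In complex III, Uqcr11 was at 102.0, 92.4 and 86.23 CPM in WT and at 113.8, 122.5 and 119.4 in MT libraries (1.24-fold, edgeR adjusted p 0.00758), and Uqcrq at 104.4, 92.49 and 90.43 against 111.9, 128.0 and 127.7 (1.25-fold, edgeR adjusted p 0.00867). Both were separated. Uqcrc2, a core protein of the matrix arm, was at 232.0, 227.5 and 220.3 against 223.7, 237.1 and 234.3 CPM, a log2 difference of 0.00 ± 0.03 with an edgeR adjusted p of 0.961. Cyc1 was at 191.4, 188.7 and 183.9 against 183.4, 197.2 and 201.7 CPM (log2 difference 0.02), again overlapping.

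In complex IV, Cox5b was at 180.1, 160.3 and 156.3 CPM in WT and 196.6, 214.2 and 222.8 in MT libraries (1.25-fold, edgeR adjusted p 0.00755). Cox7a2 was at 111.5, 104.5 and 102.4 against 121.2, 134.5 and 128.7 CPM (log2 difference 0.24 ± 0.04, edgeR adjusted p 0.00832), and Cox6a1 differed by 0.28 with the same adjusted p. Cox4i1, Cox5a, Cox7c and Cox7a2l were higher as well. With the trends of length and GC content removed, Cox7a2 (-0.0008) and Cox4i1 (-0.0053) changed sign and did not pass. The 3 that did not pass, Cox4i2, Cox6a2 and Cox7a1, are isoforms with few counts here (at most 126 in an LK library).

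In complex V, Atp5e, the epsilon subunit of the central stalk, was at 138.4, 120.7 and 112.9 CPM in WT and at 161.3, 177.7 and 168.6 in MT libraries (1.34-fold, edgeR adjusted p 0.00675). Atp5j2 was at 144.0, 123.5 and 122.7 against 160.2, 181.0 and 175.5 CPM (1.30-fold, edgeR adjusted p 0.0071). Both groups were separate in both genes. Atp5b was at 1505, 1458 and 1437 against 1447, 1517 and 1531 CPM, a log2 difference of 0.00 ± 0.04 (edgeR adjusted p 0.982). Atp5l had a log2 difference of 0.40 ± 0.35 and Ndufb4 of complex I 0.41 ± 0.26, and neither passed (edgeR adjusted p 0.444 and 0.275), given the spread between libraries described above.

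**Figure D3:**
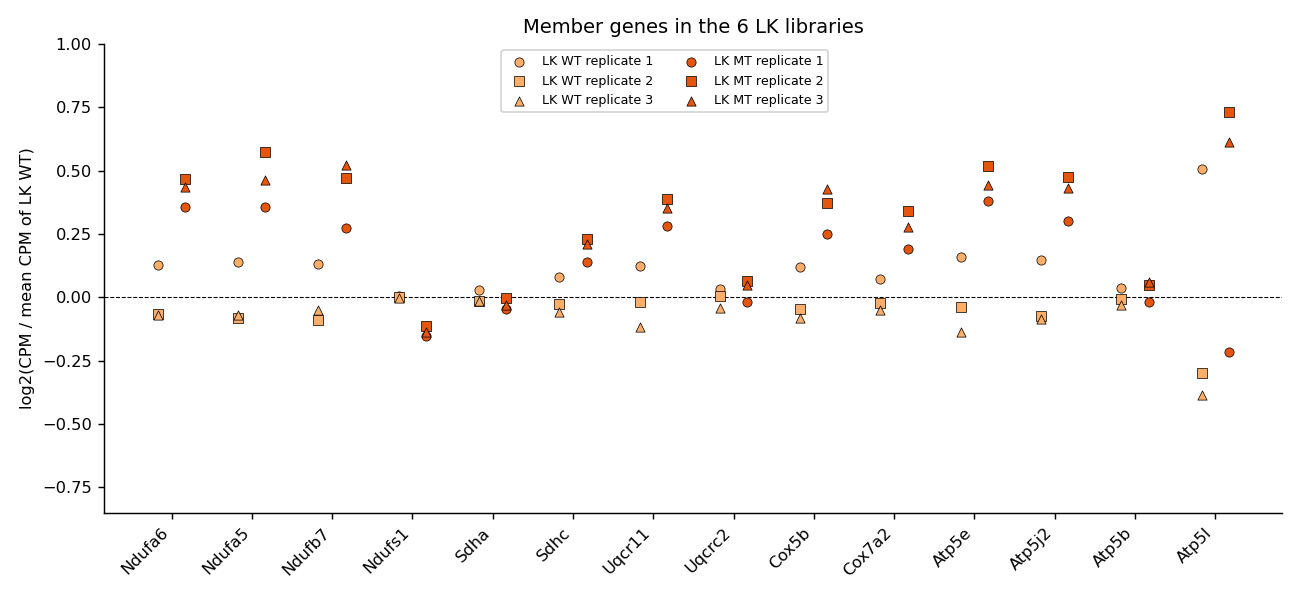
CPM of 14 members in each of the 6 LK libraries as log2 ratios to the mean of the LK WT libraries (y axis), with a symbol for each replicate number. Ndufa6, Ndufa5, Ndufb7, Uqcr11, Cox5b, Cox7a2, Atp5e and Atp5j2 separate MT from WT, Ndufs1 separates them in the other direction, and Sdha, Uqcrc2, Atp5b and Atp5l overlap.

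Summed levels followed the same division. Complex I summed to 3170, 2856 and 2803 CPM in WT and to 3338, 3629 and 3586 in MT libraries, 1.20-fold higher on average, and complex IV to 1709 to 2014 against 2164 to 2354 (1.25-fold). Complex III lay at 1314 to 1460 against 1488 to 1617 CPM (1.14-fold). In these 3 complexes no MT library was below a WT library. Complex V overlapped, at 4529 to 5007 against 4916 to 5302 CPM (1.09-fold), as did complex II (1.05-fold).

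Differences in LK cells ran with transcript length, and most members are short. Their median transcript length was 809 bases against 2719 over the genes listed in all sets. Across members the log2 difference had a Spearman correlation of -0.567 with length (n = 87), and across all genes with a length of -0.470 (n = 13738); genes share libraries and are not independent replicates. Members over 500 and up to 750 bases long had a median of 0.30 (31 genes), against 0.26 for other genes of that length, and 87.1% of them were higher by the test, against 40.1%. Members over 1000 and up to 1500 bases had a median of 0.17 (16 genes), against 0.16, with 62.5% and 30.4% higher. Over 2000 and up to 3000 bases the 5 members had a median of -0.02, against 0.03, and none was called higher, against 10.4% of other genes.

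Roles differed in length too. The median was 1623 bases for complex I core and 718 for accessory subunits, and 2066 for complex II. It was 1916 for Atp5a1, Atp5b and Atp5c1 against 669.5 for the other members of complex V. With the length and GC trends removed, 16 members were higher and 2 lower in MT (5.82% and 11.5% of all genes), and the median was 0.04. The higher ones were 10 of complex I (Ndufa2, Ndufa5, Ndufa6, Ndufa13, Ndufb3, Ndufc1, Ndufs4, Ndufs6, Ndufv2 and Ndufv3), Sdhc, Cox5b, Cox7a2l, Atp5e, Atp5j2 and Cox4nb. Ndufa5 then differed by 0.23 ± 0.05 and Sdhc by 0.17 ± 0.04, with edgeR adjusted p of 0.0142 and 0.0265. Ndufs1 (-0.18) and Atp5c1 (-0.11) were lower. No member of complex III passed in this fit (median 0.02).

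**Figure D4:**
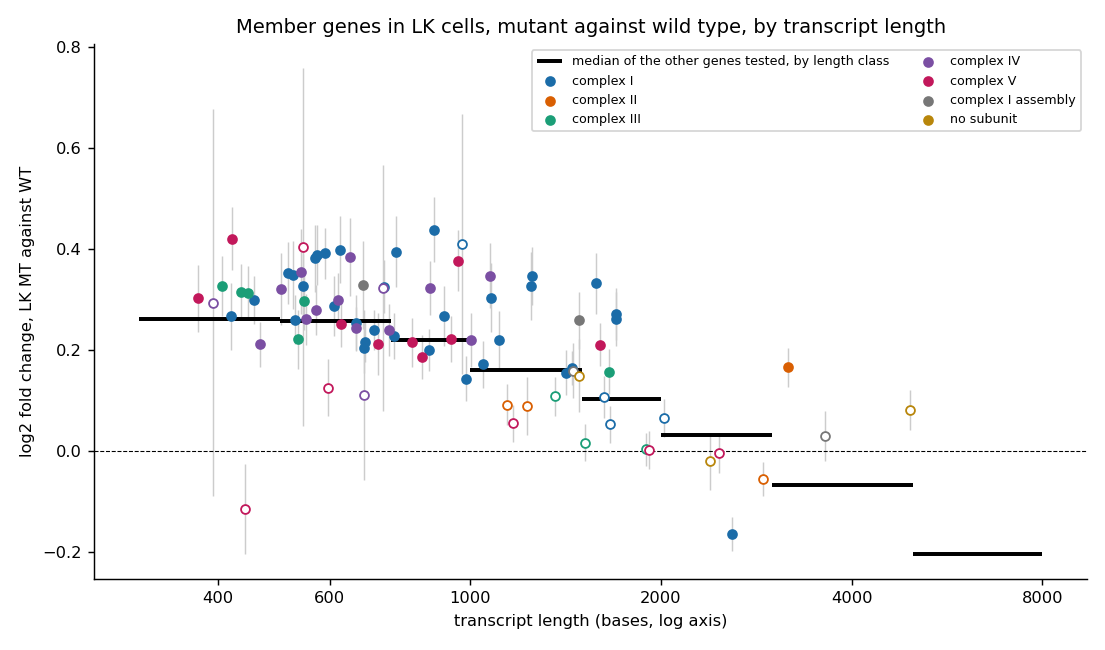
Log2 difference of LK MT against WT (y axis, ± SE) against transcript length in bases (x axis, log scale) for each member; filled points passed the test, open points did not, and black lines give the median of other genes in each length class. Members fall from about the level of other short genes to near 0 at 2000 bases and beyond, with Ndufs1 lowest.

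Other lists moved in the same fit. Cytosolic ribosomal protein genes were higher for 71 and lower for 1 of 84 (median 0.26), and mitochondrial ribosomal protein genes for 41 and 0 of 76 (median 0.17; Mrpl14 0.34). TCA cycle genes were higher for 0 and lower for 3 of 16, among them Cs (-0.13) and Ogdh (-0.16), and biogenesis regulators for 0 and 3 of 14, among them Gabpa (-0.34) and Pprc1 (-0.30). Glycolysis genes were higher for 3 (Ldhb 0.79, Hk2 0.17) and lower for 2 of 20 (Pdk1 -0.31, Hk1 -0.23). Assembly and ancillary factors outside the symbol rule were higher for 12 and lower for 3 of 33, with Minos1 at 0.32, Cox16 at 0.31, Lrpprc at -0.25 and Cox15 at -0.20.

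Cell type markers moved as well. All 5 neutrophil precursor markers were higher in MT (summed 12150 to 13820 CPM in WT against 13910 to 17260; Elane 0.49, Ms4a3 0.44), and 3 of 5 proliferation markers were lower (2751 to 3022 against 2455 to 2512; Mki67 -0.42, Top2a -0.39). All 7 later neutrophil markers lay above 0, with a median log2 difference of 2.46 (summed 76.02 to 263.6 CPM in WT against 209.2 to 1141). Of these, 0 passed edgeR's test and 2 had an unadjusted p under 0.05. Of 5 monocyte markers 1 was higher (Ly6c2 0.48) and 3 lower (among them Ccr2 -0.35 and F13a1 -0.24; summed 986.8 to 1142 against 1131 to 1253 CPM). Of 4 megakaryocyte markers Pf4 was higher (0.56; summed 163.4 to 196.2 against 202.8 to 293.6). Cd79b was higher among 5 B cell markers (0.42; 39.64 to 47.22 against 39.58 to 65.41), Nkg7 among 4 T and NK cell markers tested (0.42; 150.8 to 185.8 against 186.2 to 239.8), and 1 of 7 erythroid markers was lower (summed 1739 to 1823 against 1557 to 1612; Car1 -0.23). Their part in the result was not tested.

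In old Cd11b cells no member passed the test between MT and WT (0 of 85 by edgeR's quasi-likelihood test and 0 by DESeq2). Of all 13398 genes 0.127% were higher and 0.209% lower. By edgeR's test 4 members and 2230 of all genes had an unadjusted p under 0.05. The median log2 difference was -0.08 over members and 7 lay above 0. Without WT replicate 1, 41 members were lower in MT (6.37% of all genes), with a median of -0.18. WT replicate 1 was the lowest old WT library, with a complex I sum of 1608 CPM against 1942 and 1916, and the MT libraries lay between, at 1737, 1732 and 1666. All MT libraries were below all WT libraries for 4 members (11.4% of all genes). These were Sdhb (72.23, 80.38 and 74.68 CPM in WT against 70.76, 65.37 and 70.08 in MT, -0.14, edgeR adjusted p 0.270), Ndufa8 (51.5, 57.51 and 57.71 against 49.46, 50.58 and 48.15, -0.17, adjusted p 0.201), Cyc1 (65.61, 70.68 and 69.07 against 64.78, 65.49 and 63.7, -0.09) and Cox6b2 (5.739, 7.69 and 7.614 against 5.519, 5.709 and 5.535, -0.33, adjusted p 0.243).

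In young Cd11b cells 0 of 85 members passed edgeR's test, with 0 at an unadjusted p under 0.05, where 0.0% of all 13755 genes were called and 444 genes had an unadjusted p under 0.05. The median log2 difference was -0.01, and the sum over all members was 4267 ± 161 CPM in WT (SD, n = 4) and 4217 ± 56.3 in MT libraries (SD, n = 3). No member had all MT libraries above or all below the WT libraries (2.27% and 2.15% of all genes). The groups overlapped in Sdha, for example, at 148.5, 155.1, 150.8 and 142.8 CPM in WT and 151.7, 150.2 and 154.4 in MT libraries. A change of the genotype difference with age was called for 0 of 85 members by edgeR and 0 by DESeq2, where 0.0214% of all 14024 genes were called. By edgeR's test 2 members and 1035 of all genes had an unadjusted p under 0.05.

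The difference between MT and WT was then compared between LK and Cd11b cells of 18 months. For 47 of 87 members it was more positive in LK cells and for 0 more negative by edgeR's interaction test, where 8.79% of all 13996 genes were more positive and 12.0% more negative (20.7% in all). The median interaction was 0.33 on the log2 scale over members and 0.01 over all genes. Complex I gave 25 of these members (median 0.36), complex IV 10 (0.35), complex V 6 (0.28), complex III 3 (0.21), complex II Sdhb (0.23) and Sdhc (0.24), and the assembly factors Ndufaf3. The smallest adjusted p in complex I was that of Ndufa8 (0.37 ± 0.07, edgeR adjusted p 0.00776), which lay below WT in old Cd11b MT libraries and was at 68.16, 64.19 and 61.86 CPM in LK WT and 71.63, 78.04 and 77.9 in LK MT libraries. With the length and GC trends removed the interaction of Ndufa8 was 0.09 (edgeR adjusted p 0.282), and its difference within LK cells turned to -0.03. Ndufb7 followed with 0.54 ± 0.11 (edgeR adjusted p 0.00943) and Uqcrq of complex III with 0.45 ± 0.09 (0.0101). Atp5b (-0.03), Sdha (-0.02) and Ndufs1 (-0.14) did not pass. With the length and GC trends removed 8 members were more positive and 0 more negative (5.12% and 5.64% of all genes): Ndufb3, Ndufs4, Ndufv2, Ndufv3, Sdhc, Cox5a, Atp5j2 and Cox4nb. The count of 47 members, with 2904 of all genes called, depended on single libraries. It was 10 without LK WT replicate 2 (1129 of all genes called) and 13 without LK WT replicate 3 (1213). Without LK MT replicate 2 it was 16 (1300), and without LK MT replicate 3 it was 17 (1422). Without old WT replicates 2 or 3 it was 18 (1562) or 16 (1569), and without old MT replicates 2 or 3 it was 26 (1561) or 16 (1560). With replicates 2 and 3 summed it was 0 (0 of all genes), and with a replicate block 0 (51).

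Old and young WT Cd11b cells were compared last. The old WT libraries also serve as controls in the comparisons with LK and with old MT cells, so these are not independent. Of 85 members 67 were higher and 4 lower in old cells (edgeR; 36.1% and 36.9% of all 13719 genes), with a median of 0.53 against -0.02 over all genes. Every old library was above every young one for 67 members (37.0% of all genes) and below for 3 (35.4%). By complex 32 of 37 were higher and 1 lower in complex I, 4 of 4 higher in complex II, 8 of 9 in complex III, 11 higher and 1 lower of 13 in complex IV and 11 of 15 higher in complex V. Other lists also differed: glycolysis genes were higher for 15 and lower for 2 of 20 (median 0.74; Eno1 2.04), cytosolic ribosomal protein genes for 53 and 5 of 84 (0.51), mitochondrial ribosomal protein genes for 43 and 12 of 76 (0.30), TCA cycle genes for 9 and 3 of 16 (0.22), biogenesis regulators for 3 and 6 of 14 (-0.20) and assembly and ancillary factors outside the symbol rule for 14 and 11 of 33 (0.06).

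Atp5l showed the largest rise, from 11.16, 9.153, 10.89 and 13.11 CPM in young to 66.08, 88.95 and 83.82 in old libraries (7.10-fold, edgeR adjusted p 6.62e-08). As given above, reads of Atp5l can be shared with pseudogene copies, and its counts are uncertain. Ndufs5 was at 4.546, 6.698, 5.659 and 4.678 against 19.06, 24.72 and 25.26 CPM (4.20-fold, edgeR adjusted p 7.08e-07), and Ndufa13 at 24.28, 26.86, 29.31 and 26.69 against 73.34, 90.42 and 84.84 CPM (3.05-fold, edgeR adjusted p 1.26e-07). None of these overlapped. In complex II, Sdhb (0.71) and Sdhc (0.61) rose more than Sdhd (0.48) and Sdha (0.25) by their point values. Cox6a2 fell from 2.587, 3.542, 3.657 and 0.9587 CPM to 0.02946 to 0.09086 (edgeR adjusted p 1.52e-05), and Ndufaf4 from 8.02, 7.014, 6.193 and 5.292 to 3.041, 3.329 and 3.87 CPM (a fold of 0.51, edgeR adjusted p 0.000273). Ndufa12 and Atp5sl were the other 2 that fell (-0.34 and -0.43).

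Young and other libraries differed in more than age. The RNAs Rn7sk, Rmrp and Rpph1, which carry no poly(A) tail, summed to 13960 to 20680 CPM in young and to 1.807 to 3.694 in old and LK libraries. Later neutrophil markers, with the secondary granule genes among them, summed to 27610 to 34190 CPM in young and 80560 to 89750 in old Cd11b libraries. All 7 passed edgeR's test in WT (median log2 difference 1.37). Lower in old WT cells were 4 of 5 neutrophil precursor markers (median -1.15; summed 3823 to 6834 CPM in young against 1616 to 1750 in old), all 6 erythroid markers tested (-2.70; 46.74 to 86.93 against 10.96 to 12.43) and 4 of 5 B cell markers (-2.05; 96.71 to 213.9 against 38.91 to 61.64). All 4 T and NK cell markers tested were lower too (-1.98; 53.53 to 83.64 against 30.49 to 35.8), as were 2 of 4 megakaryocyte markers (-0.72; 39.55 to 51.38 against 14.33 to 26.72). Of 5 monocyte markers 4 were higher and 1 lower (0.40; 1960 to 2225 against 2491 to 2667), and of 5 proliferation markers 1 was higher and 3 lower (-0.20; 2366 to 2528 against 2075 to 2184). Their part in the result was not tested. Age and library content cannot be told apart in this comparison. The Y-linked gene Ddx3y lay above Xist in 1 of 4 young WT libraries. All 3 old WT libraries held Ddx3y counts, while Xist had no row in the old set and was taken as absent there. With a covariate for these genes the members' median was 0.63. Only young libraries differed in this covariate, and it rests on young WT replicate 4 alone. The value therefore does not separate sex from age. Removal of the length and GC trends moved the median of all genes from -0.02 to 0.18, and that of the members to 0.61, with 73 members higher and 4 lower (45.8% and 28.6% of all genes).

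Isoform use was read as shares of CPM per kilobase within a pair or trio of genes. Cox6b2 made up 22.3 to 23.4% of Cox6b1 and Cox6b2 in LK WT and 21.1 to 22.4% in LK MT libraries, against 7.19 to 7.55% in old WT, 6.16 to 6.7% in old MT and 9.17 to 10.1% in young WT Cd11b libraries. The LK libraries were thus apart from all Cd11b libraries. Of the c subunit genes, Atp5g3 gave most in every group, at 57.4 to 62.8% in young WT and 55.2 to 65.7% in old WT, and less in LK WT, at 42.9 to 44.4%. Atp5g1 gave 29.0 to 30.5% in LK WT against 17.9 to 21.5% in old WT. Atp5g2 varied most, with 0.98 to 30.9% in old MT libraries, where 1 library, old MT replicate 3, held 27 counts of it. Shares of Cox4i2 and Cox7a1 in their isoform groups did not exceed 0.289% and 1.32%.

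**Figure D5:**
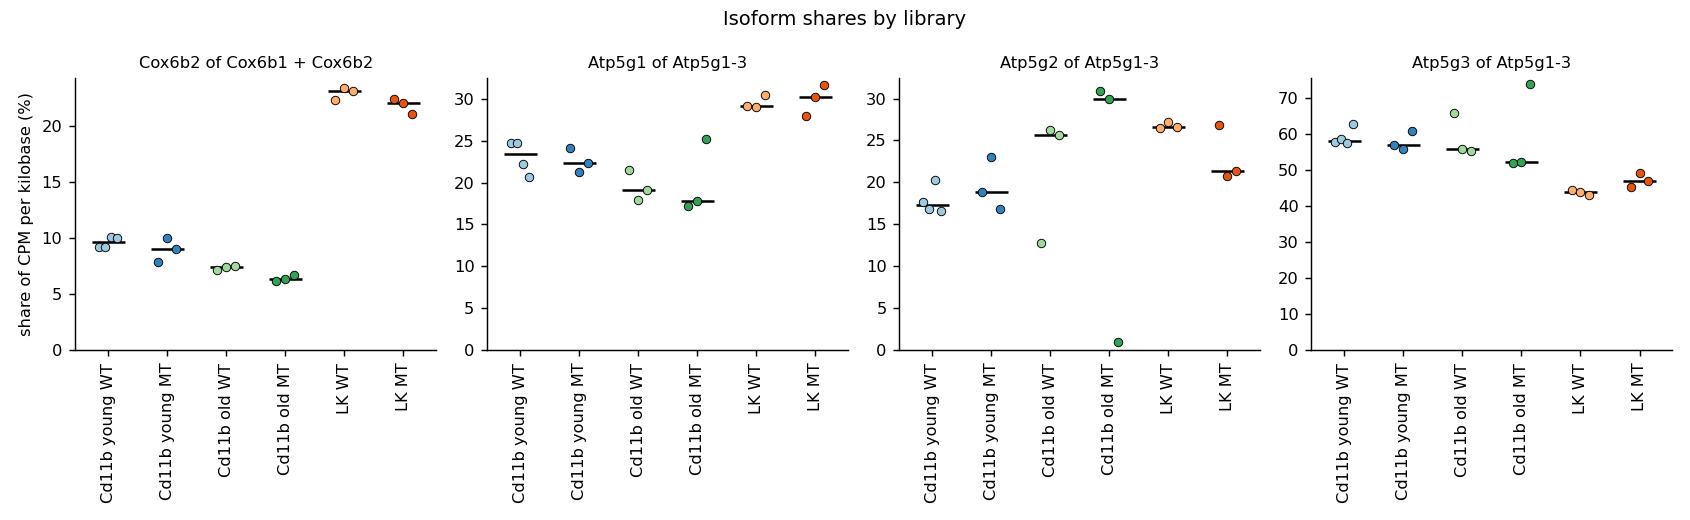
Share in percent of CPM per kilobase (y axis) for Cox6b2 within Cox6b1 and Cox6b2 and for Atp5g1, Atp5g2 and Atp5g3 within their trio, by library in the 6 groups (x axis); bars mark medians. Cox6b2 takes a larger share in LK than in Cd11b libraries, and 1 old MT library has almost no Atp5g2.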

How the data were processed

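Whole-number gene counts of 19 libraries were analysed. Per the labels' protocols, 200 ng of total RNA from an RNeasy kit went into a directional NEBNext Ultra II library. The authors deposited raw counts per gene symbol. The submitters' processing notes name STAR, HTSeq, DESeq2 and the build mm10 without roles or versions. The gene annotation, whether strand was used and how multi-matching reads were treated are not given in the sources used here, so counts of members with pseudogene copies or close paralogs are uncertain. Transposable element counts were not used here, and 0 columns of per-sample values were left out of the gene counts.

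CPM were computed over the genes listed in all sets with TMM factors from all 19 libraries. Fold changes came from edgeR 4.0.16 (R 4.3.3, limma 3.58.1, statmod 1.5.0; filterByExpr, TMM on the libraries compared, robust quasi-likelihood fit) with Benjamini-Hochberg adjustment over all genes tested and a threshold of 0.05, so a fold can differ slightly from a ratio of CPM. Members are not replicates, and conditions were compared over libraries. The standard error of a log2 difference is its size over the square root of the F statistic. Lengths and GC came from a principal or best supported transcript of GENCODE M21, and their trends were removed with splines of 5 degrees of freedom on log2 CPM with a prior count of 2. The fit was tested on simulated counts. Tables and figures were made with Python 3.11.15, pandas 2.3.3, numpy 2.4.6, scipy 1.17.1 and matplotlib 3.10.9.

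Alternatives were RLE factors, TMM factors without respiratory chain and ribosomal protein genes, no low-count filter, DESeq2 1.42.0, voom with sample weights, a replicate block, a fit of all 19 libraries, the trend removal, replicates 2 and 3 summed, a sex-linked covariate for young libraries, and each library left out. The fits without both LK MT replicates 2 and 3 were chosen after seeing the data. Named genes were, per complex, those with the highest and lowest levels per length, all of complex II, the smallest p per comparison and direction, calls against the majority, and isoform groups; Ndufa9, Ndufa11, Atp5k and other genes outside this rule were chosen after their values were seen. Members, lists and tests were chosen with earlier results of these data known.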

Additional observations from a re-analysis of the deposited data

Results flagged for a closer look

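The sum over complex III in young WT Cd11b libraries holds a library far from the others. The lowest library, WT replicate 4, was at 446.6 CPM and the others at 484.9 to 491.8, so that the gap to the nearest took a share of 0.848 of the whole range of the 4 libraries. WT replicate 4 was also the 1 library of these 4 with more counts of Ddx3y (2854) than of Xist (8), and the part of this in the result was not tested. Of the 7 sums tested this way it was the one set apart, and chance flags about 1 in 20 groups.

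The difference between MT and WT at 18 months differed between LK and Cd11b cells for 47 of 87 members by edgeR's interaction test (adjusted p under 0.05). Of all 13996 genes 20.7% were called. The counts without single libraries are given above.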

How the results depend on the processing

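The counts of members called for LK against Cd11b and for old against young cells stayed within 1.5 times under all 16 and 18 alternatives run (71 to 75 and 68 to 74 over libraries left out), and those in young cells and for genotype by age stayed at 0. In LK cells, 18 members were called between MT and WT with the length and GC trends removed, 0 with replicates 2 and 3 summed and 0 without MT replicates 2 and 3; the last leaves 1 MT library, assumed to vary like the WT ones. Over single libraries left out the count ran from 23 to 67. For the interaction with cell type, 8 members were called with the trends removed and 0 with replicates 2 and 3 summed. Without LK MT replicates 2 and 3 the median interaction was 0.28. Voom with sample weights called 74 members, 73 more positive and 1 more negative, where 6994 of all genes were called. Single libraries left out gave 10 to 65. In old Cd11b cells voom called 47 members (15.1% of all genes lower), and libraries left out gave 0 to 41. Whether replicate numbers pair the samples could not be decided. Same-numbered LK libraries had correlations of -0.444, -0.258 and -0.279 over genes between their deviations from the group means. No LK library correlated best with its own number (WT replicate 1 did so with MT replicates 2 and 3, at 0.37 and 0.372). In young Cd11b cells the same-numbered values were 0.22, -0.112 and 0.231. Deviations within a group depend on each other, and LK replicates 2 and 3 are close, so the LK values are not separate evidence. The fit with a replicate block called 0 members in LK cells (64 at an unadjusted p under 0.05) and 0 for the interaction (55), and 0 and 0 with the trends removed as well (28 and 27). With the trends removed, without and with the block, the LK difference changed sign for members that included Atp5d (-0.0102 and -0.0106), Atp5g3 (-0.0168 and -0.0178), Cox4i1 (-0.0053 and -0.0053), Cox6b2 (-0.0543 and -0.0539), Cox7a2 (-0.0008 and -0.0004), Cox8a (-0.0041 and -0.0042), Ndufa8 (-0.0294 and -0.0291) and Ndufb9 (-0.0085 and -0.0078). This list is not complete. In complex V, 13 of 15 members lay above 0 in the main fit, and the median was -0.0168 with the trends removed. Changes of sign in the interaction included Cox6a1 (-0.0072 and -0.0073), Cox8a (-0.0201 and -0.0199) and Sdhb (-0.0126 and -0.0121). In LK against Cd11b cells Atp5f1 changed sign without the block (-0.11). Beyond the alternatives' own construction, the cause was not tested. Members with few counts (Cox4i2, Cox6a2 and Cox7a1) are limited by depth.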
